A study of Mus musculus with 13 samples.

Results

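Apelin and adrenomedullin are small secreted peptides that act on vessels through receptors coupled to G proteins, and 7 genes of their signalling were followed here across the brain of mice kept at altitude. They are the ligand genes Apln and Adm, the receptor genes Aplnr and Calcrl, and the accessory protein genes Ramp1, Ramp2 and Ramp3. The 7 were matched by symbol among the 37636 gene IDs of the deposited table, where each symbol stood on a single row. All animals were male Balb/c mice of 6 to 8 weeks, and the tissue is given as brain with no region named. The 6-OHG group held 4 libraries from mice exposed to 8000 m for 24 h and given 6-OHG, a code name for which no dose or schedule is given in the sources used here. The Mod group held 5 libraries from mice with the same exposure and no 6-OHG. The Con group held 4 libraries of the normal condition, also with no 6-OHG. The labels do not say that libraries of a group came from separate animals, so p-values measure the spread between these libraries, which may be technical.

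Apelin, cut from the product of Apln, activates the receptor APJ encoded by Aplnr. In vessels, Apln is known from endothelial tip cells, APJ signalling relaxes vessels through endothelial nitric oxide, and Apln is a known target of hypoxia-inducible factors. Adrenomedullin, the product of Adm, is a vasodilator peptide that also strengthens the endothelial barrier, and its gene is likewise a known hypoxia target. Its receptor is a complex: the calcitonin receptor-like receptor, encoded by Calcrl, reaches the cell surface with a receptor activity-modifying protein. With RAMP2 or RAMP3 the complex prefers adrenomedullin, and with RAMP1 it is the receptor of calcitonin gene-related peptide.

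The promoters of the 3 genes that were higher in Mod than in Con are shown because hypoxia-inducible factors bind a short core, written ACGTG or GCGTG, that can be looked for in them. The sequences run 5′ to 3′ on the strand of the gene, from 250 bases before to 50 bases after the RefSeq start on GRCm38.p6. Matches to either core on either strand are in capitals, so that a match on the opposite strand reads CACGC.
Adm, chr7:110627407-110627706, plus strand: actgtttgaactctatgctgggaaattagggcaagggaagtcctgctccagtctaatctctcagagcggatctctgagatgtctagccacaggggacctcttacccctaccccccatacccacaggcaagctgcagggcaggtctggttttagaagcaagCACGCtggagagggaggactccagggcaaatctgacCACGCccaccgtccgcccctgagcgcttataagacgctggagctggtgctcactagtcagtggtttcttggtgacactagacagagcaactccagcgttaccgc
Ramp3, chr11:6658283-6658582, plus strand: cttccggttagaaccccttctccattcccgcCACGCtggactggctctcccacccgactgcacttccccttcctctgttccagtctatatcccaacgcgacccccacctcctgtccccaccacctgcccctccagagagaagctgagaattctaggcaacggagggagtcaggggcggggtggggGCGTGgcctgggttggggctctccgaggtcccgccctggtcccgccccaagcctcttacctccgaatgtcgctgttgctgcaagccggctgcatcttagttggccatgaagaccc
Apln, chrX:48034804-48035103, minus strand: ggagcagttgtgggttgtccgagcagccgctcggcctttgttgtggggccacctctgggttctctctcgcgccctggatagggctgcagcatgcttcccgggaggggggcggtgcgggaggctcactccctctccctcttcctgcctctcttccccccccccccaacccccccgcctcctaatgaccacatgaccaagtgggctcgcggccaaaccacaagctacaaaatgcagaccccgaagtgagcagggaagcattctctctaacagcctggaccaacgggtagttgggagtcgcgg
The Adm promoter held 2 matches to GCGTG on the opposite strand, at -90 to -86 and -54 to -50 from the start. The Ramp3 promoter also held 2, 1 on the opposite strand at -219 to -215 and 1 on the gene's strand at -65 to -61. Neither core was in the window of Apln or of Ramp1, and that of Calcrl held 1 match after the start, at 22 to 26. Of 32851 mouse promoters of the same length, 43.8% held at least 1 match and 20.6% at least 2, so these counts are common, and a match is a description of letters and not a bound site.

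Values were FPKM, fragments scaled by mapped fragments and by gene length, which are per length and so can be set beside each other between genes. Counts per library are not given in the file and depth is therefore unknown. FPKM summed to 272992 to 278335 per library in 6-OHG, 282978 to 312908 in Mod and 268208 to 299371 in Con. All Mod sums were thus above all 6-OHG sums. Genes of the mitochondrial genome took 20.6% to 28.7% of the sum. By their median correlation with the rest of their group, 6-OHG replicate 2 at 0.966 and Con replicate 4 at 0.969 were the least alike, against 0.978 to 0.988 for the other libraries. With both left out, every member called below was called in the same direction and no further member was called. Neuron markers such as Snap25 and Rbfox3 summed to 787 to 1029 FPKM in every library, which fits the tissue label. Markers of single regions varied widely within groups, those of the striatum between 35.1 and 377 FPKM and those of the choroid plexus between 3.24 and 692 FPKM, and the labels do not say which brain parts a library holds.

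Differences were tested on log2(FPKM + 1), a scale that understates changes of genes with low values, with limma across the 13905 genes whose mean reached 1 FPKM, and calls were made below an adjusted p of 0.05. Of the 7 members, 6 were tested, and Aplnr, with a mean of 0.296 FPKM, was under the filter. In Mod against Con, 3 of the 6 were called higher (Apln, Adm and Ramp3) and 0 lower, where 23.8% of all genes tested were called, 14% higher and 9.81% lower. In 6-OHG against Mod, 3 were called lower (Adm, Ramp1 and Ramp3) and 0 higher, where 15.3% of all genes were called, 6.98% higher and 8.35% lower. In 6-OHG against Con, 2 were called higher (Apln and Adm) and 1 lower (Ramp1), where 30.7% of all genes were called, 16.3% higher and 14.4% lower. The groups did not overlap for 3 members higher and 1 lower (Calcrl) in Mod against Con, where this held for 22.4% of all genes tested, 13.5% higher and 8.87% lower. In 6-OHG against Mod they did not overlap for 3 members, all lower, against 15.9% of all genes, 7.6% higher and 8.34% lower. In 6-OHG against Con they did not overlap for 2 members higher and 2 lower (Ramp1 and Aplnr), against 28.1% of all genes, 15.6% higher and 12.5% lower. The counts of groups that did not overlap are over all 7 members, and Aplnr is not among the genes tested that give the shares. The comparisons share libraries and are not independent of each other, and with 6 or 7 genes these counts are a description.

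**Figure D1:**
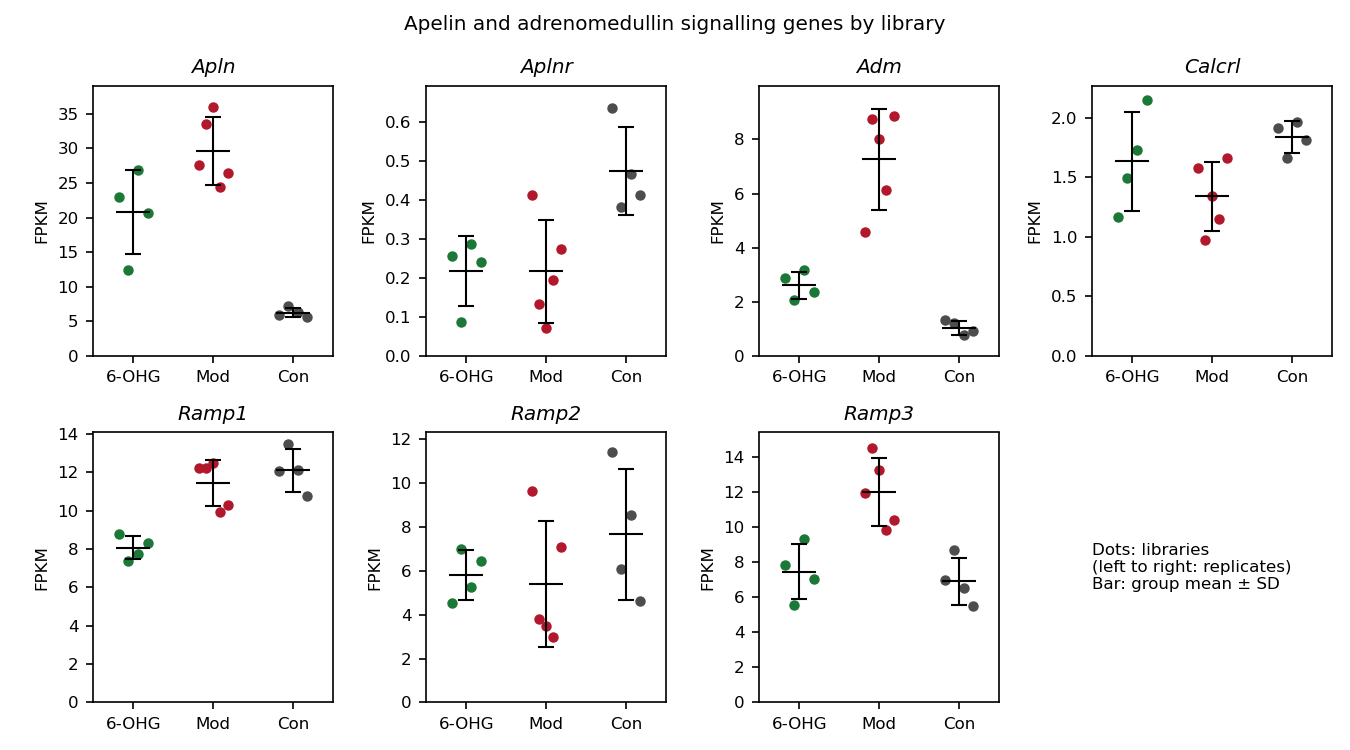
FPKM of each gene (vertical axes, each from 0) in the 6-OHG, Mod and Con libraries; dots are libraries in replicate order and bars are the mean ± SD. Adm in the 5 Mod libraries (4.57 to 8.87 FPKM) lies above all 6-OHG (2.07 to 3.17) and Con libraries (0.757 to 1.32).

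**Figure D2:**
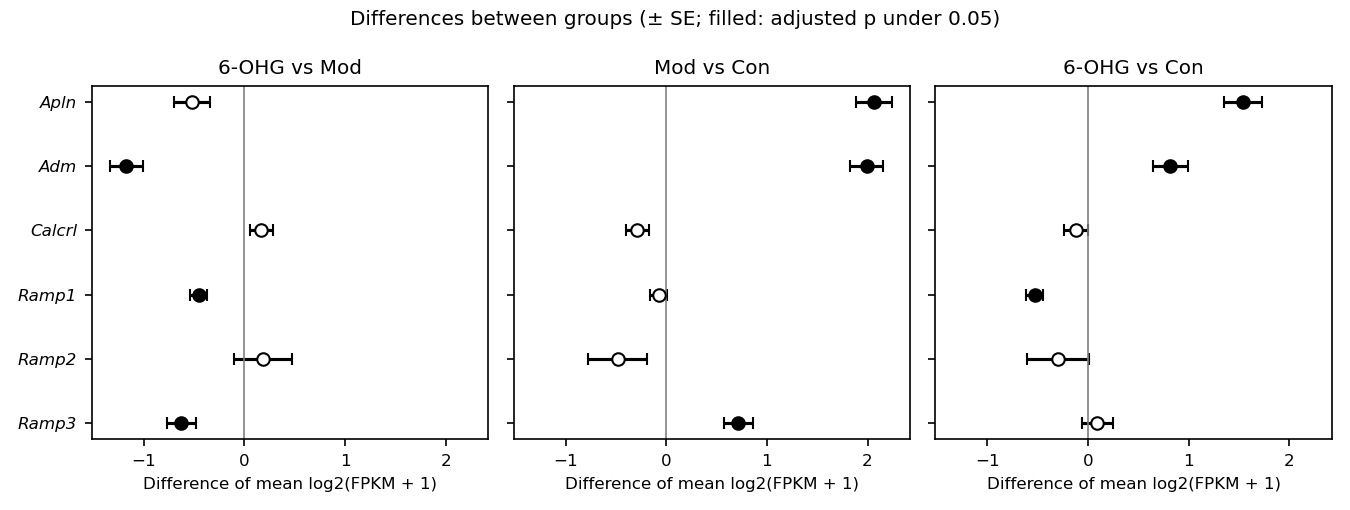
Difference between group means of log2(FPKM + 1) with its SE (horizontal axes, shared) for the 6 genes tested, in 6-OHG against Mod, Mod against Con and 6-OHG against Con; filled symbols mark an adjusted p under 0.05. Adm is filled in all 3, below 0 in 6-OHG against Mod and above 0 in the others.

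Apln (X:48025146-48034853, minus strand, 3 exon blocks, GRCm38), the apelin precursor gene, was several-fold higher in Mod than in Con. It stood at 27.6, 33.6, 36.0, 24.4 and 26.4 FPKM in Mod, against 5.99, 7.17, 6.28 and 5.58 FPKM in Con. Every Mod library was above every Con library, and the ratio of the means was 4.73. The difference was 2.07 on the log2 scale (SE 0.18, adjusted p = 9.95e-06 by limma). In bulk tissue, more RNA per cell and more cells of a type cannot be told apart, here and for every gene that follows.

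In 6-OHG libraries Apln was at 23.0, 12.5, 26.9 and 20.7 FPKM. The group averaged 20.8 ± 6.10 FPKM against 29.6 ± 4.95 FPKM in Mod and 6.25 ± 0.673 FPKM in Con (SD, n = 4, 5 and 4). 6-OHG and Mod overlapped, since 6-OHG replicate 3 lay above Mod replicates 4 and 5. The difference of -0.52 (SE 0.18) was not called, at an adjusted p of 0.0647, and it was called at -0.66 without 6-OHG replicate 3 (adjusted p = 0.0340) and at -0.45 with sample weights (adjusted p = 0.0457). Without 6-OHG replicate 2, the least alike library, it was -0.31 and not called (adjusted p = 0.114). Against Con, every 6-OHG library was higher, with a ratio of means of 3.33 and a log2 difference of 1.54 (SE 0.19, adjusted p = 0.000135). The lower mean of Apln in 6-OHG than in Mod thus had an unadjusted p of 0.0116 by limma but did not pass the adjustment over all genes tested. Whether it was called depended on the fit.

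Adm (7:110627661-110629820, plus strand, 4 exon blocks), the adrenomedullin precursor gene, was the only one of the 6 members tested that was called in all 3 comparisons. In 6-OHG it was at 2.86, 2.07, 3.17 and 2.35 FPKM, in Mod at 4.57, 8.75, 8.03, 6.14 and 8.87 FPKM, and in Con at 1.32, 1.21, 0.757 and 0.911 FPKM. The groups did not overlap in any pair, with 6-OHG between Mod and Con. Mod was 6.94 times Con by means and 1.99 higher on the log2 scale (SE 0.16, adjusted p = 6.96e-06). 6-OHG was 0.359 times Mod, a log2 difference of -1.17 (SE 0.16, adjusted p = 0.00157). 6-OHG was still 2.49 times Con, a log2 difference of 0.82 (SE 0.17, adjusted p = 0.0038). The 6-OHG against Mod call was lost in 1 of 12 alternatives, the one that removed a length and GC trend and blocked on replicate number together (adjusted p = 0.0607).

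Markers of the hypothalamus, neuropeptide genes of that region, had their highest median sum in Mod, the group with the highest Adm and Ramp3. Of the 6 markers, 4 were tested. In 6-OHG against Mod, Hcrt and Pmch were called lower and 0 higher. In Mod against Con, Hcrt, Oxt and Avp were called higher and 0 lower. In 6-OHG against Con 0 were called by limma, with 0 at an unadjusted p under 0.05. Over all genes tested, 15.3%, 23.8% and 30.7% were called in these comparisons in turn. The 6 summed to 1.91 to 38.0 FPKM in 6-OHG (median 19.7), 60.7 to 120 FPKM in Mod (median 104) and 3.69 to 72.3 FPKM in Con (median 28.0), and no marker of the list was at 0 in a library. In replicate order the sums were 1.91, 2.31, 38.0 and 37.1 FPKM in 6-OHG and 120, 67.2, 106, 60.7 and 104 FPKM in Mod. In Con they were 32.3, 3.69, 72.3 and 23.6 FPKM. The paragraphs on Apln, Adm and Ramp3 give their values in the same order. The part of these markers in the Adm and Ramp3 results was not tested.

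Aplnr (2:85136225-85139923, plus strand, 1 exon block), the gene of the apelin receptor APJ, had the lowest level of the 7 in every group. It was at 0.255, 0.0866, 0.287 and 0.241 FPKM in 6-OHG, at 0.412, 0.132, 0.0716, 0.195 and 0.273 FPKM in Mod, and at 0.635, 0.381, 0.467 and 0.411 FPKM in Con. All 6-OHG libraries were below all Con libraries, and of the Mod libraries 4 of 5 were. The means were 0.217 ± 0.0893 FPKM in 6-OHG, 0.217 ± 0.132 FPKM in Mod and 0.473 ± 0.113 FPKM in Con (SD). A two-sided exact permutation test over libraries, chosen after the values were seen, gave p = 0.0286 for 6-OHG against Con, the smallest that 4 against 4 allows, and p = 0.0317 for Mod against Con. Adjusted over the 3 comparisons both were at 0.0476 by this exact test, and in both the adjusted p passed 0.05 in 9 of the 13 fits that left out 1 library, at up to 0.0857 for 6-OHG against Con and 0.134 for Mod against Con. In limma with no filter on low values neither was called (adjusted p = 0.0663 and 0.0632 in that order). For 6-OHG against Mod the difference of means was 0.000672 FPKM (exact permutation p = 0.992). Under 1 FPKM, values rest on few fragments, and the lower Aplnr of exposed libraries is therefore given as values and not as a call.

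Within a library, Apln was 85.9 to 144 times Aplnr in 6-OHG, 67.1 to 503 times in Mod and 9.43 to 18.8 times in Con. Ligand and receptor transcripts thus stood furthest apart in exposed libraries, where Apln was higher and Aplnr had lower means; the highest ratio belonged to Mod replicate 3, which had the lowest Aplnr of all. No test was made of these ratios.

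Calcrl (2:84330626-84425411, minus strand, 16 exon blocks), the gene of the calcitonin receptor-like receptor that adrenomedullin and calcitonin gene-related peptide share, was low throughout. It was at 1.16, 1.5, 1.73 and 2.15 FPKM in 6-OHG, at 1.58, 0.974, 1.34, 1.15 and 1.66 FPKM in Mod, and at 1.91, 1.67, 1.97 and 1.82 FPKM in Con. The Mod libraries all lay below the Con libraries, narrowly, as did 8.87% of all genes tested. The difference of -0.29 (SE 0.11) was not called, at an adjusted p of 0.0880 by limma. It was called in 3 of 12 alternatives, with quantile normalization (0.0383), sample weights (0.0404) and the length and GC trend removed (0.0499), and the adjusted p reached 0.183 in another. Neither 6-OHG against Mod (0.17, SE 0.11, adjusted p = 0.357) nor 6-OHG against Con (-0.12, SE 0.12, adjusted p = 0.478) was called.

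The order of ligand and receptor transcripts differed between exposed and Con libraries. Adm was 1.09 to 2.46 times Calcrl in 6-OHG and 2.89 to 8.99 times in Mod, and it was 0.385 to 0.726 times Calcrl in Con. The 3 ranges did not overlap, as those of Adm alone did not. The ratio was chosen after the values were seen, and no test was made of it. Adm was above Calcrl in all 9 exposed libraries and below it in all 4 Con libraries.

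Ramp1 (1:91179822-91225196, plus strand, 5 exon blocks) encodes the partner that makes the receptor respond to calcitonin gene-related peptide. It was at 8.77, 7.39, 7.76 and 8.30 FPKM in 6-OHG, at 12.2, 12.2, 12.5, 9.93 and 10.3 FPKM in Mod, and at 12.1, 13.5, 12.1 and 10.7 FPKM in Con. All 6-OHG libraries were below all Mod and all Con libraries, while Mod and Con overlapped. Ramp1 was 0.704 times as high in 6-OHG as in Mod, a log2 difference of -0.45 (SE 0.08, adjusted p = 0.00399 by limma). Against Con the log2 difference was -0.53 (SE 0.09, adjusted p = 0.000779). Mod against Con gave -0.08 (SE 0.08, adjusted p = 0.545), so that Ramp1 was called in the 2 comparisons that hold 6-OHG libraries. The 6-OHG against Mod call was lost with the length and GC trend removed and the replicate block together (adjusted p = 0.0795). Microglia markers had lower sums in both exposed groups than in Con. The 7 summed to 61.1 to 89.2 FPKM in 6-OHG, 75.6 to 89.2 FPKM in Mod and 93.3 to 106 FPKM in Con. Of them, 5 were called lower in 6-OHG against Con and 1, Tmem119, in Mod against Con (adjusted p = 0.0146 by limma). In 6-OHG against Mod 0 were called, and 1 had an unadjusted p under 0.05 by limma. The 6 oligodendrocyte markers summed to 505 to 921 FPKM in 6-OHG, 612 to 1415 FPKM in Mod and 958 to 1262 FPKM in Con, with Olig1 called lower in 6-OHG against Mod (adjusted p = 0.0451 by limma) and Olig1 and Mag called lower in 6-OHG against Con. The part of both lists in the Ramp1 differences was not tested.

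Ramp3 (11:6658521-6677475, plus strand, 4 exon blocks), whose product makes the receptor prefer adrenomedullin, was highest in Mod. It was at 7.83, 5.55, 9.30 and 7.05 FPKM in 6-OHG, at 11.9, 14.5, 13.3, 9.84 and 10.4 FPKM in Mod, and at 6.95, 8.67, 6.51 and 5.48 FPKM in Con. Every Mod library was above every library of the other groups, which overlapped each other. Mod was 1.73 times Con, a log2 difference of 0.72 (SE 0.15, adjusted p = 0.00405 by limma). 6-OHG was 0.621 times Mod, a log2 difference of -0.63 (SE 0.15, adjusted p = 0.0136). 6-OHG against Con was not called (0.09, SE 0.15, adjusted p = 0.693). The 6-OHG against Mod call was lost when a trend with gene length and GC content was removed (-0.42, adjusted p = 0.108). Exons of Ramp3 overlap those of Gm11978 on the opposite strand over 101 bases, 7.3% of its exon length, and Gm11978 was at 0.0832 FPKM or less in every library.

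Ramp2 (11:101246028-101259546, plus strand, 8 exon blocks), the other adrenomedullin partner and the one known from endothelium, varied more within groups than between them. It was at 4.51, 6.97, 5.27 and 6.46 FPKM in 6-OHG, at 9.63, 3.78, 3.48, 2.98 and 7.06 FPKM in Mod, and at 11.4, 6.07, 8.56 and 4.60 FPKM in Con. The ranges overlapped in every pair of groups. None of the 3 comparisons was called, at 0.18 (SE 0.29, adjusted p = 0.719) for 6-OHG against Mod, -0.48 (SE 0.29, adjusted p = 0.259) for Mod against Con and -0.30 (SE 0.31, adjusted p = 0.495) for 6-OHG against Con.

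Ramp2 cannot be read alone in this annotation. Its exons overlap those of Vps25, an endosomal sorting subunit gene, on the same strand over 1103 bases, 33.4% of its exon length, so counting may divide shared fragments between the pair. Vps25 was at 12.2, 9.26, 8.18 and 7.33 FPKM in 6-OHG, at 10.5, 20.9, 20.9, 19.8 and 11.2 FPKM in Mod, and at 6.05, 12.6, 6.87 and 17.5 FPKM in Con. The 3 Mod libraries with the lowest Ramp2 were the 3 with the highest Vps25, and in Con the order of the 4 libraries for Vps25 was the reverse of that for Ramp2. In 6-OHG the order was not reversed throughout: replicate 1 had the lowest Ramp2 and the highest Vps25, but replicate 2 had the highest Ramp2 and the second highest Vps25. The sum of both genes ranged from 13.5 to 16.7 FPKM in 6-OHG, 18.3 to 24.7 FPKM in Mod and 15.4 to 22.1 FPKM in Con. Levels of Ramp2 are therefore uncertain, and whether the division of fragments set them was not tested.

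**Figure D3:**
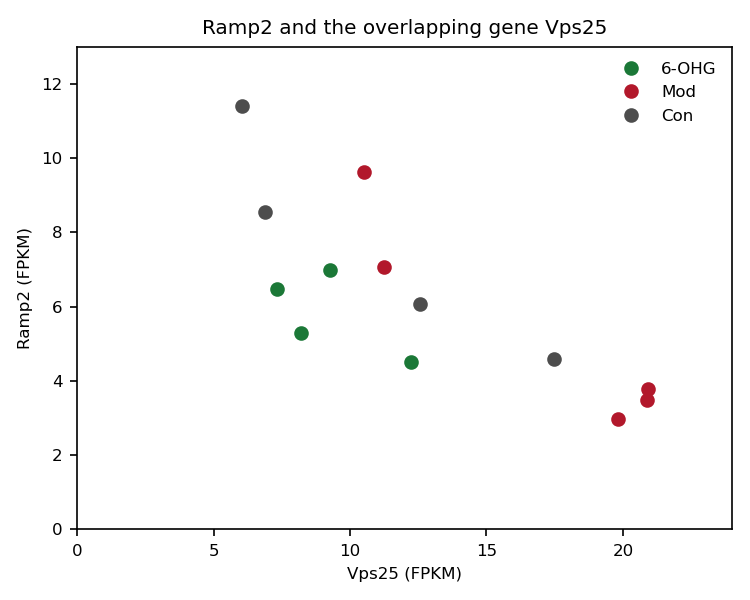
Ramp2 (vertical axis, FPKM) against Vps25 (horizontal axis, FPKM), 1 dot per library, coloured by group. Libraries with Vps25 near 20 FPKM (Mod replicates 2 to 4) have Ramp2 between 2.98 and 3.78 FPKM, and the Con library with Vps25 at 6.05 has Ramp2 at 11.4 FPKM.

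Since all 3 accessory proteins can partner the product of Calcrl, the balance of their RNA was set out as shares. Bulk values do not say whether these RNAs and that of Calcrl lay in the same cells. A share of RNA is therefore not a share of receptor complexes. The 3 Ramp genes summed to 19.9 to 22.3 FPKM in 6-OHG, 22.8 to 33.8 FPKM in Mod and 20.8 to 30.4 FPKM in Con. Ramp3 held 34.7% ± 5.95 of that sum in 6-OHG, 41.7% ± 5.22 in Mod and 26.0% ± 3.51 in Con (SD, n = 4, 5 and 4). The Ramp3 share was 15.8 percentage points higher in Mod than in Con (exact permutation p = 0.00794, two-sided, the smallest that 5 against 4 allows). Adjusted over the 9 tests of 3 genes in 3 comparisons this was 0.0714, and 0 of the 9 passed 0.05. At an unadjusted p under 0.05 it was the 1 that did. With so few libraries, a single test at its smallest possible p cannot pass 0.05 after this adjustment. The adjusted value therefore cannot decide whether the share differed. The 3 shares of a library also add up to the whole, so the 9 tests are not independent.

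Because of the overlap of Ramp2 with Vps25, the share was also taken within Ramp1 and Ramp3, a choice made after the values were seen. Ramp3 then held 47.2, 42.9, 54.5 and 45.9% in 6-OHG, 49.3, 54.2, 51.5, 49.8 and 50.1% in Mod, and 36.5, 39.2, 34.9 and 33.8% in Con. All exposed libraries, with or without 6-OHG, were above all Con libraries. The difference was 14.9 points for Mod against Con (exact permutation p = 0.00794, adjusted over 3 comparisons 0.0238). For 6-OHG against Con it was 11.5 points (exact permutation p = 0.0286, the smallest possible, adjusted 0.0429). For Mod against Con the exact p was the same as for the share among all 3 genes, the smallest possible in both. Its adjusted value was lower only because the adjustment was over 3 tests and not 9. Without Con replicate 4 the exact tests of Mod against Con and 6-OHG against Con gave adjusted values of 0.0536 and 0.0857, past 0.05 in both. Fewer libraries also raise the smallest possible p, and all exposed libraries still lay above the Con libraries left. With any 1 library left out, the Mod against Con difference stayed between 14.1 and 15.9 points. For 6-OHG against Mod the difference was -3.35 points (exact permutation p = 0.222), and without 6-OHG replicate 3, the library with the highest share of all 13, it was -5.64 points (adjusted exact p = 0.0268). Both genes were lower in 6-OHG than in Mod, as given above, while the 6-OHG range of their balance, 42.9 to 54.5%, contains the whole Mod range.

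**Figure D4:**
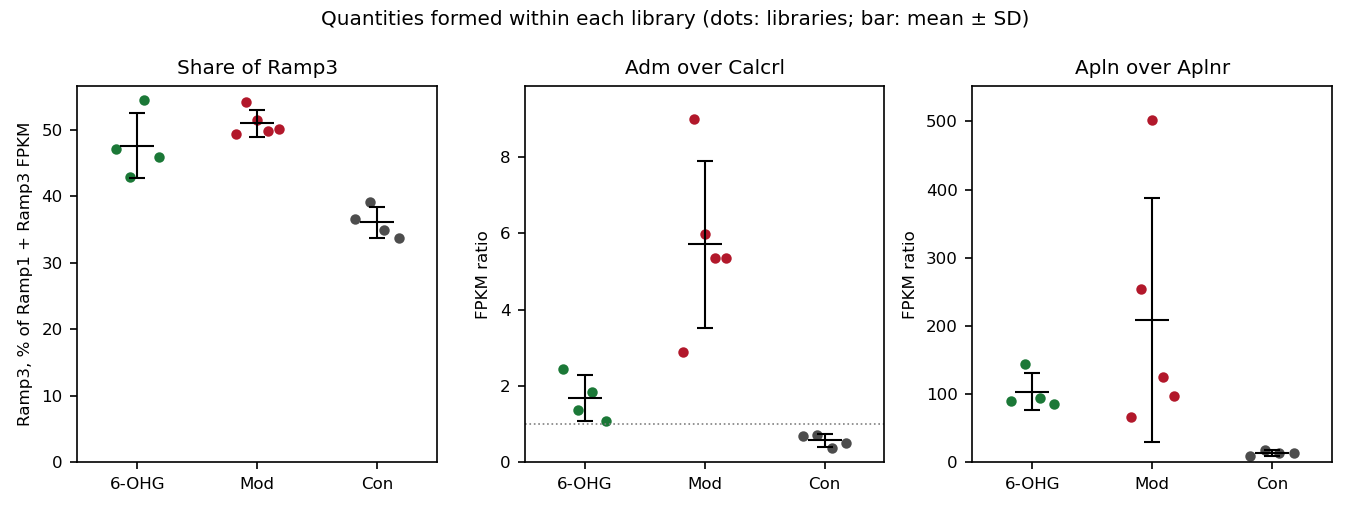
Quantities formed within each library, for 6-OHG, Mod and Con: the share of Ramp3 in the summed FPKM of Ramp1 and Ramp3 (percent), and the FPKM ratios of Adm to Calcrl and of Apln to Aplnr; dots are libraries and bars the mean ± SD, and the dotted line marks a ratio of 1. The Con libraries lie below all exposed libraries in each panel.

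The order of the members by level differed between the groups. In 6-OHG the mean FPKM ran from Apln through Ramp1, Ramp3, Ramp2, Adm and Calcrl to Aplnr, and the ranges of Ramp1 and Ramp3, of Ramp3 and Ramp2, and of Adm and Calcrl overlapped. In Mod it ran from Apln through Ramp3, Ramp1, Adm, Ramp2 and Calcrl to Aplnr, where Ramp3 and Ramp1, and Adm and Ramp2, overlapped. In Con it ran from Ramp1 through Ramp2, Ramp3, Apln, Calcrl and Adm to Aplnr, where the first 4 overlapped in turn. Apln, the fourth in Con, was the highest in both exposed groups, with no overlap with the next gene.

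Within the 6-OHG group, replicate 2, the library that stood apart, had the lowest Apln, Adm, Ramp1, Ramp3 and Aplnr of the 4 libraries and the highest Ramp2. Replicate 3 had the highest Apln, Adm, Ramp3 and Aplnr, but its Ramp1 of 7.76 FPKM was the second lowest. Calcrl was lowest in replicate 1 and highest in replicate 4. With 4 libraries this is a description and was not tested.

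For each member, the genes whose pattern over the 13 libraries was most like it were found by the root mean square difference of standardised log2 values among 11655 named protein-coding genes, where 0 is an identical pattern. The genes nearest to Apln were Angpt2 at 0.144, which encodes an antagonist ligand of the endothelial receptor Tie2, Crot at 0.169, which encodes a peroxisomal carnitine acyltransferase, and Tubb6 at 0.192, a beta-tubulin gene. Angpt2 averaged 6.48 ± 2.68 FPKM in 6-OHG, 10.1 ± 1.83 FPKM in Mod and 0.479 ± 0.165 FPKM in Con (SD). Those nearest to Adm were Rsrp1 (0.273), Ankrd37 (0.278) and Wdr45 (0.304). Rsrp1 averaged 116 ± 6.46 FPKM in 6-OHG, 158 ± 8.61 FPKM in Mod and 96.1 ± 7.035 FPKM in Con. Ankrd37 averaged 4.72 ± 0.481 FPKM in 6-OHG, 8.03 ± 1.35 FPKM in Mod and 3.04 ± 0.660 FPKM in Con. For Ramp3 the nearest genes were Tmem42 (0.358), Pfkl (0.377) and Rab24 (0.417). Tmem42 averaged 5.61 ± 0.572 FPKM in 6-OHG, 7.30 ± 0.445 FPKM in Mod and 5.14 ± 0.493 FPKM in Con. Pfkl, the liver-type phosphofructokinase gene, averaged 21.9 ± 1.19 FPKM in 6-OHG, 29.6 ± 2.28 FPKM in Mod and 20.5 ± 1.83 FPKM in Con. For Ramp1 the nearest genes were Cox7c (0.321), Atp6v0b (0.335) and Serf2 (0.355). Calcrl (nearest Sox6, 0.440), Aplnr (nearest Wls, 0.468) and Ramp2 (nearest Cbfb, 0.604) had no gene as near. Among the members, Apln and Adm were 0.447 apart, Adm and Ramp3 0.549, and Apln and Ramp3 0.671.

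Of 9 genes of related peptides and receptors, 8 were found in the table, Iapp was not analysed here, and 2 reached the filter. Apela, the other ligand of APJ, was at 0 in all 6-OHG and Mod libraries and at 0.0534 FPKM or less in Con, and Adm2, a paralogue of Adm, was at 0.0465 FPKM or less in every library. Calca, which encodes calcitonin gene-related peptide, ranged from 0.173 to 3.17 FPKM in 6-OHG, from 0.168 to 1.83 FPKM in Mod and from 0.267 to 2.88 FPKM in Con. Crcp, whose product helps the calcitonin gene-related peptide receptor to signal, was higher in Mod than in Con, at 13.5 ± 0.540 against 10.3 ± 0.404 FPKM (log2 difference 0.36, SE 0.07, adjusted p = 0.00214 by limma). It was also higher in 6-OHG than in Con, at 12.3 ± 1.46 FPKM (0.23, SE 0.07, adjusted p = 0.0251). Ackr3, a scavenger receptor that binds adrenomedullin, was not called in any comparison.

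Of 6 genes of peptide maturation and breakdown, 5 were tested. Pam, the enzyme that amidates adrenomedullin, was at 14.5 ± 0.872 FPKM in 6-OHG, 13.3 ± 0.769 FPKM in Mod and 13.1 ± 0.219 FPKM in Con and was not called in the 3 comparisons. All 6-OHG libraries (13.6 to 15.7 FPKM) were above all Con libraries (12.9 to 13.4 FPKM), as held for 15.6% of all genes tested. The adjusted p by limma was 0.0775 for 6-OHG against Con and 0.142 for 6-OHG against Mod.

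Of 25 genes of receptor coupling (G protein subunits, receptor kinases, arrestins, adenylyl cyclases and protein kinase A), 24 were tested. In 6-OHG against Mod, 4 were called higher and 1 lower, in Mod against Con 1 higher and 3 lower, and in 6-OHG against Con 4 higher and 4 lower. Of all genes tested, 15.3%, 23.8% and 30.7% were called in these comparisons in turn, so the counts are a description. The list's median log2 differences in that order were 0.08, -0.05 and 0.01, beside -0.02, 0.01 and 0.00 over all genes tested. Gnaq, a Gq subunit gene, was at 30.4 ± 1.42 FPKM in 6-OHG and 22.8 ± 1.76 FPKM in Mod (0.41, SE 0.07, adjusted p = 0.00281 by limma), and it was also lower in Mod than in Con, at 27.4 ± 2.19 FPKM (-0.26, SE 0.07, adjusted p = 0.0158). Adcy9, an adenylyl cyclase gene, was higher in 6-OHG than in Mod (0.66, SE 0.14, adjusted p = 0.00842), and Gnai2, an inhibitory subunit gene, was lower (-0.30, SE 0.07, adjusted p = 0.00881). Adcy3 was lower in Mod than in Con (-0.45, SE 0.07, adjusted p = 0.000918), and Grk3, a receptor kinase gene, was higher (0.31, SE 0.08, adjusted p = 0.0165).

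Of 21 genes of vascular tone, 13 were tested. In 6-OHG against Mod 0 were called by limma, with 2 at an unadjusted p under 0.05, in Mod against Con 2 were higher and 2 lower, and in 6-OHG against Con 3 were higher and 2 lower. The shares called over all genes tested were 15.3%, 23.8% and 30.7% in the same order. Nos3, the endothelial nitric oxide synthase gene that lies downstream of APJ, was higher in Mod than in Con, at 3.36 ± 0.424 against 2.05 ± 0.360 FPKM (0.52, SE 0.11, adjusted p = 0.0043). Kcnj8, a subunit gene of the vascular ATP-sensitive potassium channel, was also higher (0.64, SE 0.15, adjusted p = 0.00864), while the endothelin receptor gene Ednrb (-0.61, SE 0.17, adjusted p = 0.0190) and the endothelin-converting enzyme gene Ece1 (-0.22, SE 0.06, adjusted p = 0.0152) were lower.

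Endothelial markers, the cells in which Apln, Calcrl and Ramp2 are best known in brain, were called in both directions. Of 14 tested, 7 were called higher and 3 lower in Mod against Con, 1 higher and 2 lower in 6-OHG against Mod, and 5 higher and 4 lower in 6-OHG against Con. Over all genes tested, 23.8%, 15.3% and 30.7% were called in these comparisons in turn. Pecam1 was higher in Mod than in Con (0.85, SE 0.08, adjusted p = 2.06e-05 by limma), and Tek was lower (-0.94, SE 0.11, adjusted p = 9.61e-05). The list's median log2 difference was -0.10 in 6-OHG against Mod, 0.37 for Mod over Con and 0.19 for 6-OHG over Con, beside -0.02, 0.01 and 0.00 over all genes tested. The 15 markers summed to 78.9 to 109 FPKM in 6-OHG, 91.3 to 108 FPKM in Mod and 93.0 to 110 FPKM in Con. Itm2a, an endothelial membrane protein gene, carried 30.6 ± 2.55 FPKM of that sum in Con and 7.07 ± 1.23 FPKM in Mod, so the sum sets its fall against rises of other markers. The part of endothelial markers in the Apln, Adm and Ramp3 results was not tested. Pericyte and smooth muscle markers summed to 54.6 to 68.9 FPKM in 6-OHG, 60.3 to 72.9 FPKM in Mod and 62.4 to 88.0 FPKM in Con. These sums also set rises against falls. Of 9 tested, 0 were called in 6-OHG against Mod by limma, with 0 at an unadjusted p under 0.05. In Mod against Con 3 were called higher and 3 lower, and in 6-OHG against Con 3 higher and 4 lower. The shares over all genes tested are those given for the endothelial markers. The part of this list in the member results was not tested.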

How the data were processed

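Brain RNA of 13 mouse libraries was sequenced in pairs of reads on an Illumina NovaSeq after Trizol extraction, per the labels' protocols. The values analysed are FPKM, made and deposited by the authors. The submitters' processing notes name HISAT2 2.2.1, featureCounts 1.5.0-p3, StringTie 2.1.6 and cutadapt 1.9 among other tools, and the builds GRCm38 and mm10. Which tool made the FPKM, and the strand setting, is not given in the sources used here. Of low values, 2.46% to 3.99% lay at the worth of a read, so no counts were recovered and no count test or counting interval is given.

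Of the IDs, 37499 were matched to symbols. Models with 1 mean per group were fitted to log2(FPKM + 1) in limma 3.58.1 (R 4.3.3) over all 13 libraries, with moderated variances, a trend on the mean, and adjustment by Benjamini and Hochberg over 13905 genes, those whose mean reached 1 FPKM. Single values were tested by two-sided exact permutation over libraries. Both procedures were tested on simulated data. Coordinates and exon lengths are from GENCODE M21 on GRCm38, and promoters from RefSeq on GRCm38.p6, found for 5 of the 7 members. Named were the members, up to 4 list genes per comparison with the smallest p, the 3 genes most like each member, and markers. Angpt2, Ankrd37, Pfkl, Rsrp1 and Tmem42 levels, Pam, Calca, Apela, Adm2 and Ackr3, and the overlapping genes Vps25 and Gm11978 were chosen after their values were seen. The ratios of ligand to receptor, the order of levels and the sum of Ramp2 and Vps25 were also added after the data were seen. A gene of the list of peptide maturation and breakdown is not reported here. Members and lists were chosen with earlier results of these data known. Alternatives were another pseudocount, filter, scaling, moderation, weighting, length and GC trend, replicate block and leaving out libraries.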

Additional observations from a re-analysis of the deposited data

How the results depend on the processing

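The member calls were tried under 13 alternatives and with each library left out in turn, and no member called in the report changed direction. For 6-OHG against Mod, the genes called numbered 976 with a length and GC trend removed (2131 as reported), 846 with a replicate block and 64 with both, and with both 0 members were called, as Ramp3 (adjusted p = 0.175), Adm and Ramp1 passed 0.05. For Mod against Con they numbered 2061 with a filter at 5 FPKM (3304 as reported), 2039 with the replicate block and 2133 with the block and the trend removed. For 6-OHG against Con they numbered 2663 with the filter at 5 FPKM (4268 as reported). At that filter Adm and Calcrl are not tested. The labels do not say that equal replicate numbers pair libraries. Deviations from group means correlated between -0.483 and 0.346 for equal numbers and between -0.492 and 0.651 for unlike numbers. Such correlations cannot show whether libraries of equal number were handled together, so the block is given as an alternative. Leaving out 1 library gave 1357 to 2345 genes for 6-OHG against Mod, the lowest without 6-OHG replicate 4, 2382 to 3653 for Mod against Con and 3427 to 4238 for 6-OHG against Con. Members called then numbered 3 to 4 in 6-OHG against Mod, and 3 in both other comparisons. Rescaling to equal sums moved the higher share of called genes to 77.7% in 6-OHG against Mod (45.5% as reported). In Mod against Con it moved that share to 40.6% (58.7% as reported). This rescaling divides by the FPKM sums, which were higher in every Mod library than in every 6-OHG library, so it raises 6-OHG against Mod. In 6-OHG against Mod it left Adm (-1.09, adjusted p = 0.00256), Ramp1 (-0.36, adjusted p = 0.0263) and Ramp3 (-0.53, adjusted p = 0.0310) called lower by limma. Quantile normalization moved the higher share to 57.5% in 6-OHG against Mod, and the cause of that was not tested. With a pseudocount of 0.1 the log2 difference of Aplnr was -0.89 in 6-OHG against Con and -0.94 in Mod against Con, against -0.28 in each with 1, since a smaller pseudocount expands differences of low values. The highest and lowest library of each group were also set against the others for 30 groups of values, and none stood apart by Dixon's criterion. Depth is unknown.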
